A study of Mus musculus with 7 samples.

Results

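The Notch pathway was examined through 10 genes in papillomas of mice with and without NANOG overexpression. They are the receptors *Notch1*, *Notch2*, *Notch3* and *Notch4*, the ligands *Jag1*, *Jag2*, *Dll1* and *Dll4*, and the target genes *Hes1* and *Hey1*. The genes were chosen by symbol, and all 10 were found among the 23122 gene symbols with usable values in the deposited tables. Papillomas of 4 CTR and 3 TG mice, each from a different C57BL/6 animal, were profiled by RNA-seq of polyA+ RNA. Collection was at protocol end or when a mouse reached its humane endpoint, and which applied to each papilloma is not given. All mice carried the *tetO-Nanog* allele, a *Nanog* cDNA placed downstream of *Col1a1* under a doxycycline-responsive promoter. All received doxycycline in their drinking water, at 2 mg/ml, together with the DMBA/TPA skin carcinogenesis protocol, which comprised 15 weeks of TPA, from 8 to 10 weeks of age. Only TG mice carried *K5-rtTA*, in which a bovine keratin 5 promoter drives the transactivator, a promoter of the basal layer rather than of stroma or vessels.

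Notch is a receptor that cells use to read signals on the surface of their neighbors. Binding of a Jagged or Delta-like ligand exposes the receptor to cleavage by an ADAM protease and then by gamma-secretase. The freed intracellular part enters the nucleus, joins RBPJ and a Mastermind protein, and turns on genes of the HES and HEY families, which are transcriptional repressors. In stratified epidermis Notch signaling promotes the commitment of basal keratinocytes to suprabasal differentiation, and loss of *Notch1* in mouse skin favors tumors. *Dll4* and *Notch4* are best known from endothelium, and *Notch3* also from the mural cells around vessels.

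*Nanog* separated the groups, with 36.9 to 66.9 FPKM in TG and 2.70 to 12.7 FPKM in CTR papillomas. FPKM (fragments scaled by transcript length and library size) values allow only an approximate comparison of levels between genes. Basal keratinocyte markers were abundant in every papilloma, with a summed level of at least 6632 FPKM over 6 genes led by *Krt14*. TG 3 stood apart from the other 6 papillomas. Its 7 skeletal muscle markers summed to 593.4 FPKM against at most 4.77 FPKM elsewhere, its 6 fibroblast markers to 677.9 against at most 128.6, and its 7 suprabasal keratinocyte markers to 4353 against at least 7428. Its 6 leukocyte markers summed to 98.1 FPKM against at most 38.7. Not every marker followed its sum. *Krt1*, *Krt10*, *Lor* and *Krtdap* were lowest in TG 3, but *Dsg1a* and *Sbsn* lay inside the CTR range. *Ivl*, at 36.4 FPKM in TG 3, lay above the CTR range of 17.7 to 26.8. Of the leukocyte markers, *Cd68* lay inside the CTR range and *Cd3e* was highest in TG 3 only narrowly. *Lyz2* gave 54.1 FPKM of the leukocyte sum of TG 3. TG 3 also had a median of 1.14 FPKM over all 23122 symbols against 0.539 to 0.673 elsewhere, and 65 entries with a FAIL status against 17 to 34. Depth was highest in CTR 3 and TG 1, at about 15434955 and 15521499 reads on genes against 9964992 to 10539095 elsewhere, as inferred from the widths of the Cufflinks intervals.

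None of the 10 genes was called different between TG and CTR papillomas. Averaged over the 7 papillomas, 9 of them reached 0.5 FPKM and were tested with limma on log2(FPKM + 0.5), a scale that understates the change of low genes. *Hey1* fell below this minimum. At a Benjamini-Hochberg adjusted p under 0.05, 0 of the 9 passed with limma, as did 0% of the 12299 genes tested. *Nanog* was therefore not called either, although its groups separated and the paper lists it as upregulated in TG papillomas by Cufflinks. A missing call here does not show equal levels. At an unadjusted p under 0.05, 0 of the 9 passed, against 6.82% of all genes tested (598 higher and 241 lower in TG, or 403 higher and 551 lower after quantile normalization). For 0 of the 10 did the groups separate completely, against 4.93% of tested genes lying higher in every TG papilloma and 2.23% lying lower in every TG papilloma. 6 of the 9 tested genes had a higher mean in TG papillomas, where 60.0% of all genes did. Their median log2 difference was 0.07, beside 0.06 over all genes tested. Without TG 3, 3 of the 9 were higher and the median was -0.11, beside -0.03 over all genes. TG 3 held the top value for 5 of the 9 genes, and for 41.1% of all genes tested.

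**Figure D1:**
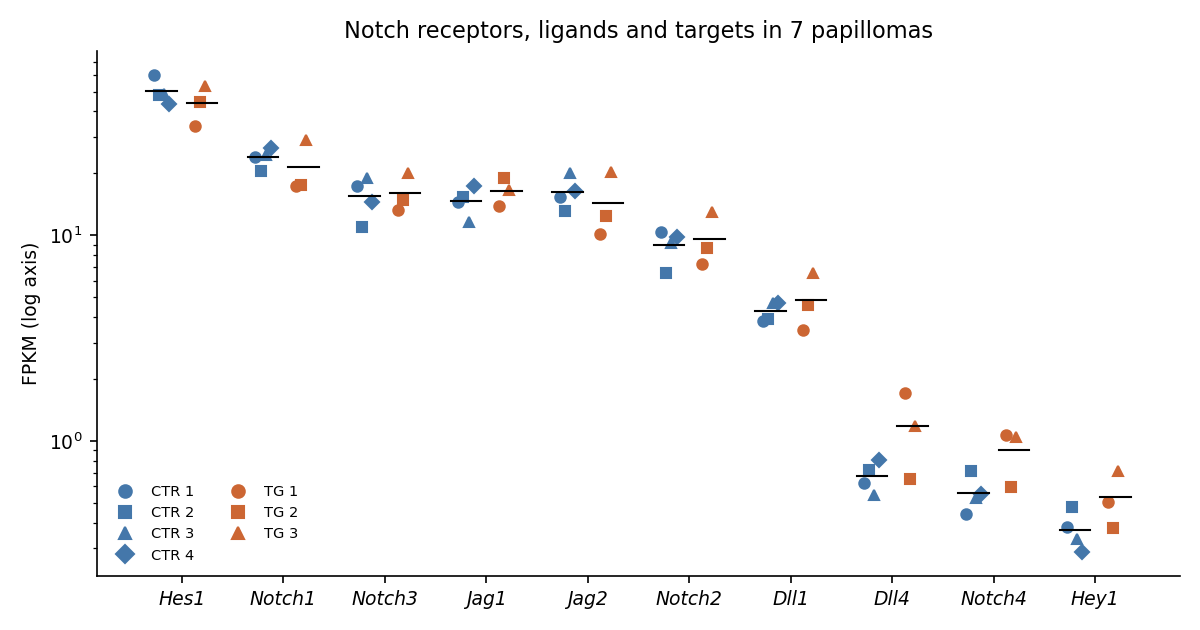
FPKM of each gene (log axis) in 4 CTR (blue) and 3 TG (orange) papillomas, with the replicate number given by the symbol shape and the group mean by a black line. The genes fall into 2 ranges, from 3.46 FPKM upward for 7 genes and up to 1.70 FPKM for *Dll4*, *Notch4* and *Hey1*, and the groups overlap for every gene.

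The order of levels was nearly the same in both groups. *Hes1* was the most abundant of the 10 genes in all 7 papillomas, and *Notch1* came second in all except TG 2, where *Jag1* exceeded it. *Notch3*, *Jag1* and *Jag2* followed at means of 15.7 ± 3.25, 15.4 ± 2.42 and 15.4 ± 3.84 FPKM (SD, n = 7). Their ranges overlapped, and *Notch3* exceeded *Jag1* in 3 of 7 papillomas, so these neighbors were not ordered. *Notch2* lay below *Jag2* in every papilloma and *Dll1* below *Notch2*. *Dll4*, *Notch4* and *Hey1* closed the order in that sequence in 7 of 7 papillomas, although the ranges of neighboring genes overlapped. A gap from 3.46 FPKM, the lowest *Dll1* value, to 1.70 FPKM, the highest *Dll4* value, separated these low genes from the rest.

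Among receptors, *Notch1* was the most abundant and *Notch4* the least. *Notch1*, on chromosome 2 from 26457902 to 26503822 (GRCm38), measured 23.9, 20.6, 24.5 and 26.7 FPKM for CTR 1 to CTR 4. The TG 1, TG 2 and TG 3 values were 17.4, 17.6 and 29.2 FPKM. TG 1 and TG 2 therefore lay below every CTR papilloma and TG 3 above every one. The Cufflinks intervals, which cover counting error in a single library, ended at 18.0 FPKM in TG 1 and 18.4 in TG 2 and began at 19.8 FPKM in CTR 2, the lowest CTR papilloma. TG papillomas averaged 21.4 ± 6.76 FPKM (SD, n = 3), against 23.9 ± 2.55 FPKM (SD, n = 4) for CTR. This is a log2 difference of -0.19 (95% interval -0.67 to 0.29, adjusted p = 0.920 from limma). Without TG 3 it was -0.43, with an unadjusted p of 0.0361 and an adjusted p of 0.468 from limma. The difference was -0.07 without TG 1, -0.08 without TG 2 and -0.06 in the lower-depth papillomas alone (without CTR 3 and TG 1).

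*Notch3* and *Notch2* varied between papillomas in both groups. *Notch3* (chromosome 17, from 32120893 to 32166852) had 17.4, 11.0, 19.0 and 14.5 FPKM for CTR 1 to CTR 4, against 13.2, 14.9 and 20.1 FPKM for TG 1 to TG 3. Its log2 difference was 0.06 (95% interval -0.46 to 0.58, adjusted p = 0.986 from limma). *Notch2* (chromosome 3, from 98013538 to 98150367) had 10.4, 6.57, 9.19 and 9.79 FPKM for CTR 1 to CTR 4, against 7.24, 8.68 and 12.9 FPKM for TG 1 to TG 3. For both genes CTR 2 was the lowest and TG 3 the highest of the 7 papillomas. The log2 difference of *Notch2* was 0.07 (95% interval -0.46 to 0.61, adjusted p = 0.985 from limma). Without TG 3 both differences changed sign, to -0.11 for *Notch3* and -0.15 for *Notch2*. The 8 mural markers, led by *Acta2*, summed to between 13.5 and 24.2 FPKM in CTR papillomas, and to 30.1, 15.8 and 74.2 FPKM for TG 1 to TG 3.

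*Notch4* (chromosome 17, from 34564295 to 34588543) was detected at low level, with 40 to 149 implied reads in a library. Its values were 0.440, 0.715, 0.526 and 0.553 FPKM for CTR 1 to CTR 4, and 1.06, 0.595 and 1.04 FPKM for TG 1 to TG 3. TG 1 and TG 3 were above every CTR papilloma, and TG 2 lay inside the CTR range. Its log2 difference was 0.39 (95% interval -0.15 to 0.94, adjusted p = 0.827 from limma), and 0.31 without TG 3. Of 12 possible TG-CTR pairs, 11 had the higher value in TG (p = 0.0857 by 2-sided exact permutation, which can give no p below 0.0286).

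Of the summed receptor FPKM, *Notch1* made up 49.2% ± 3.73 in CTR (SD, n = 4) and 44.3% ± 2.01 in TG papillomas (SD, n = 3). *Notch3* made up 31.4% ± 3.77 in CTR and 33.8% ± 1.93 in TG, and *Notch2* 18.3% ± 1.44 and 19.9% ± 1.17. *Notch4* stayed between 0.842% and 2.73% in every papilloma. No share differed between the groups past the threshold (2-sided exact permutation tests, p = 0.114 for *Notch4*, 0.171 for *Notch1* and *Notch2* and 0.343 for *Notch3*). The ratio of *Notch1* to *Notch2* was 2.71 ± 0.340 in CTR (SD, n = 4) and 2.23 ± 0.188 in TG papillomas (SD, n = 3), with a p of 0.0857 in the same exact test. The summed receptor level was 48.96 ± 6.78 FPKM in CTR and 48.0 ± 13.3 FPKM in TG papillomas.

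The bases before the start sites of the most and the least abundant receptor are shown as the ends of the receptor range. RefSeq windows on GRCm38.p6 were found for 8 of the 10 genes, and none for *Hes1* and *Hey1*. The windows cover 250 bases upstream of the annotated start, for *Notch1* chr2:26503823-26504072 on the minus strand and for *Notch4* chr17:34564045-34564294 on the plus strand. Capitals mark each CG dinucleotide, written 5′ to 3′.
Notch1: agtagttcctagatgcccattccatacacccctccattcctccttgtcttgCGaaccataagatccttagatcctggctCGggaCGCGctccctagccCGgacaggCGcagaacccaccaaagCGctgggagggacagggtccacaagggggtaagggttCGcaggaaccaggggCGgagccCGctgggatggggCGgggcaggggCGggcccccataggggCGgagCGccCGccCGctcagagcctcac
Notch4: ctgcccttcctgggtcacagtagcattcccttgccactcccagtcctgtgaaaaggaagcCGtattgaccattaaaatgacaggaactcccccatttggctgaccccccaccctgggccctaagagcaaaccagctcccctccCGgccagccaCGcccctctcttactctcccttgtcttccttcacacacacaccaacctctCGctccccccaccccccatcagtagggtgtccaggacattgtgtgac
The *Notch1* window holds 16 CG dinucleotides and the *Notch4* window 4, where the median over 32851 windows is 6. Over the other genes the count was 14 for *Dll4*, 17 for *Notch3*, 20 for *Jag1*, 34 for *Notch2* and 54 for *Jag2*, and it was 21 and 13 in the windows of *Dll1*. The core of the RBPJ motif, TGGGAA on either strand, was in none of the 9 windows of the 8 genes, while 21.6% of all windows hold it. Its absence says only that these letters do not occur in these windows.

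*Jag1* and *Jag2* were the main ligands and reached similar levels. *Jag1*, on chromosome 2 from 137081451 to 137116520, measured 14.5, 15.4, 11.6 and 17.3 FPKM for CTR 1 to CTR 4. TG 1, TG 2 and TG 3 gave 13.9, 18.9 and 16.6 FPKM, which overlaps the CTR range. The difference on the log2 scale was 0.16 (95% interval -0.26 to 0.58, adjusted p = 0.925 from limma), and leaving out 1 papilloma gave 0.06 without CTR 3 or without TG 2, 0.24 without CTR 4 and 0.28 without TG 1. It was positive in all 20 alternatives of processing and of papillomas used. *Jag2*, on chromosome 12 from 112908590 to 112929495, measured 15.4, 13.2, 20.0 and 16.4 FPKM for CTR 1 to CTR 4. The TG 1, TG 2 and TG 3 values were 10.1, 12.5 and 20.4 FPKM.

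*Jag2* thus showed the same arrangement as *Notch1*, with TG 1 and TG 2 below every CTR papilloma and TG 3 above every one. TG 3 exceeded CTR 3 by less than the width of their Cufflinks intervals (19.0 to 21.7 and 19.0 to 21.0 FPKM). The log2 difference of *Jag2* was -0.22 (95% interval -0.79 to 0.35, adjusted p = 0.925 from limma). Without TG 3 it was -0.50, with an unadjusted p of 0.0432 and an adjusted p of 0.488 from limma. The difference was -0.12 without CTR 3 and -0.01 without TG 1, and in the lower-depth papillomas alone it was 0.09, of the opposite sign. *Notch1* and *Jag2* were the only members with an unadjusted p under 0.05 from limma without TG 3. At the same threshold and without TG 3, 627 genes were higher and 522 lower in TG papillomas, of 11990 tested. The part of the TG 3 marker levels given above was not tested.

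*Dll1* and *Dll4* are the Delta-like ligands. *Dll1* (chromosome 17, from 15367354 to 15375823) had 3.82, 3.93, 4.69 and 4.67 FPKM for CTR 1 to CTR 4, against 3.46, 4.60 and 6.53 FPKM for TG 1 to TG 3. TG 1 was the lowest and TG 3 the highest of the 7 papillomas. On the log2 scale the difference was 0.13 (95% interval -0.36 to 0.63, adjusted p = 0.955 from limma), and -0.08 without TG 3. *Dll1* made up 11.9% ± 0.640 of the summed ligand FPKM in CTR (SD, n = 4) and 13.0% ± 1.44 in TG papillomas (SD, n = 3).

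*Dll4*, on chromosome 2 from 119325784 to 119335666, had the largest relative spread of the 10 genes, with a coefficient of variation of 46.5% over the 7 papillomas against 15.6% for *Jag1*. CTR 1 to CTR 4 gave 0.624, 0.719, 0.548 and 0.805 FPKM. TG 1, TG 2 and TG 3 gave 1.70, 0.650 and 1.19 FPKM, so TG 2 lay inside the CTR range and the other TG papillomas above it. From 35 to 143 implied reads stood behind each value. The *Dll4* log2 difference was 0.47 (95% interval -0.13 to 1.08, adjusted p = 0.826 from limma), and TG was higher in 10 of 12 pairs (2-sided exact permutation test, p = 0.114). It was 0.72 without TG 2, with an unadjusted p of 0.0249 and an adjusted p of 0.845 from limma, 0.44 without TG 3, 0.25 without TG 1 and 0.20 in the lower-depth papillomas alone. The locus overlaps 1 other entry of the tables, *Gm14207*, and whether reads were counted by strand is not given in the sources used here.

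**Figure D2:**
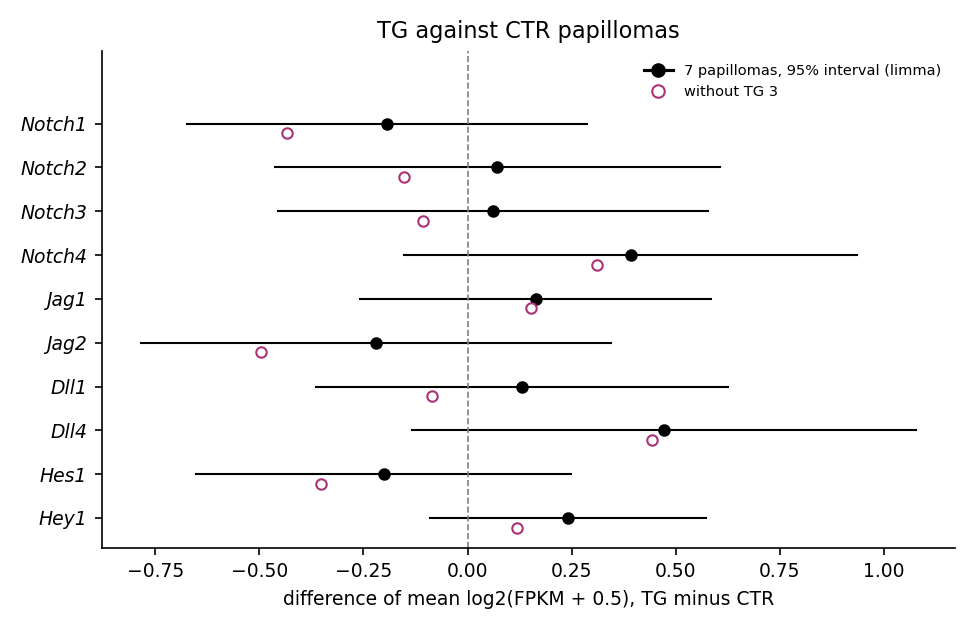
Difference of mean log2(FPKM + 0.5), TG minus CTR, for each gene (filled points, 95% limma intervals as lines, 7 papillomas) and without TG 3 (open points). Every interval spans 0, and the open points of *Notch2*, *Notch3* and *Dll1* lie on the other side of 0. *Hey1* is shown from the limma run without a filter on low values.

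*Hes1*, which encodes the classic bHLH repressor downstream of Notch, did not differ between the groups past the threshold. On chromosome 16 from 30065357 to 30067796, it measured 60.5, 48.0, 48.4 and 43.7 FPKM for CTR 1 to CTR 4. TG 1, TG 2 and TG 3 gave 33.8, 44.7 and 53.4 FPKM. TG 1 was below every CTR papilloma, with an interval of 31.5 to 36.2 FPKM, and TG 2 and TG 3 lay inside the CTR range. TG papillomas averaged 43.96 ± 9.78 FPKM (SD, n = 3), against 50.1 ± 7.20 FPKM (SD, n = 4) for CTR. The *Hes1* log2 difference was -0.20 (95% interval -0.65 to 0.25, adjusted p = 0.900 from limma). Leaving out 1 papilloma gave -0.35 without TG 3, -0.11 without CTR 1 and -0.03 without TG 1, and the lower-depth papillomas gave -0.04.

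*Hey1*, a related repressor best known from vessels and heart, was far less abundant. *Hey1* (chromosome 3, from 8663359 to 8667038) had 0.380, 0.478, 0.332 and 0.289 FPKM for CTR 1 to CTR 4, against 0.507, 0.379 and 0.717 FPKM for TG 1 to TG 3. TG 1 and TG 3 were above every CTR papilloma and TG 2 was not. Only 9 to 22 implied reads stood behind each value, and the interval of CTR 4 ran from 0.0962 to 0.481 FPKM. The *Hey1* log2 difference was 0.24, with TG higher in 10 of 12 pairs (p = 0.143 by 2-sided exact permutation). It was 0.12 without TG 3, 0.35 without TG 2 and 0.41 with a pseudocount of 0.1. *Hes1* exceeded *Hey1* by between 66.8 and 159.3 times in each papilloma. This ratio was 139.2 ± 26.5 in CTR (SD, n = 4) and 86.4 ± 27.6 in TG papillomas (SD, n = 3), with a p of 0.0857 in a 2-sided exact permutation test.

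The 3 low genes, *Dll4*, *Notch4* and *Hey1*, were highest in TG 1 and TG 3, and endothelial markers were highest there too. The 10 endothelial markers, led by *Pecam1*, summed to 13.3, 17.3, 12.4 and 19.1 FPKM for CTR 1 to CTR 4 and to 31.2, 16.3 and 39.5 FPKM for TG 1 to TG 3. All 10 had a higher mean log2 level in TG papillomas, where 60.0% of all genes tested did, and none was at 0 in any papilloma. Of the 10, 4 lay higher in every TG papilloma, against 4.93% of tested genes and 4.13% of all symbols. The mural marker sum given above was likewise highest in TG 1 and TG 3. In bulk tissue, more cells of a type and more RNA per cell cannot be told apart. Within CTR papillomas *Dll4* followed the same order as the marker sum, from CTR 3 through CTR 1 and CTR 2 to CTR 4. Over all 7 papillomas, log2 values of *Dll4* and of the marker sum gave r = 0.891 (exact permutation p = 0.0135, adjusted p = 0.0270 for 4 relations) and rho = 0.964 (exact permutation p = 0.00278, adjusted p = 0.0111). Without TG 1 and TG 3, the papillomas farthest from the median of the marker sum, r was 0.95 over 5 papillomas. The share of all tested genes with such an r to this sum was not computed, and 41.1% of them were highest in TG 3. The permutations for these relations mix CTR and TG papillomas, so a shift between the groups adds to r.

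For *Notch4* r was 0.931 (exact permutation p = 0.00754, adjusted p = 0.0270) and rho was 0.821 (exact permutation p = 0.0341, adjusted p = 0.0683). Without TG 1 and TG 3 r was 0.595, and for *Hey1* it dropped from 0.813 (exact permutation p = 0.0230, adjusted p = 0.0307) to 0.02, so these relations rest on those papillomas. The rho of *Hey1* was 0.607 (exact permutation p = 0.167, adjusted p = 0.222). *Notch3* and the mural marker sum gave r = 0.376 (exact permutation p = 0.419, adjusted p = 0.419) and rho = 0.143 (exact permutation p = 0.783, adjusted p = 0.783), with r = -0.08 without TG 1 and TG 3. Each group holds fewer than 6 papillomas, as does each depth class, so no relation was computed within them.

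The low genes were also set against the endothelial marker sum. *Dll4* amounted to 4.37% ± 0.235 of it in CTR (SD, n = 4) and 4.15% ± 1.24 in TG papillomas (SD, n = 3), with a p of 0.657 in a 2-sided exact permutation test. The similar means hide opposite deviations. TG 1 (5.46%) lay above the CTR range of 4.16% to 4.68%, and TG 2 (3.98%) and TG 3 (3.00%) below it. *Notch4* amounted to 3.65% ± 0.658 in CTR and 3.24% ± 0.525 in TG papillomas (exact permutation p = 0.486). *Hey1* amounted to 2.45% ± 0.631 and 1.92% ± 0.360 (exact permutation p = 0.286). The part of endothelial content in the higher FPKM of TG 1 and TG 3 was not tested beyond these values.

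**Figure D3:**
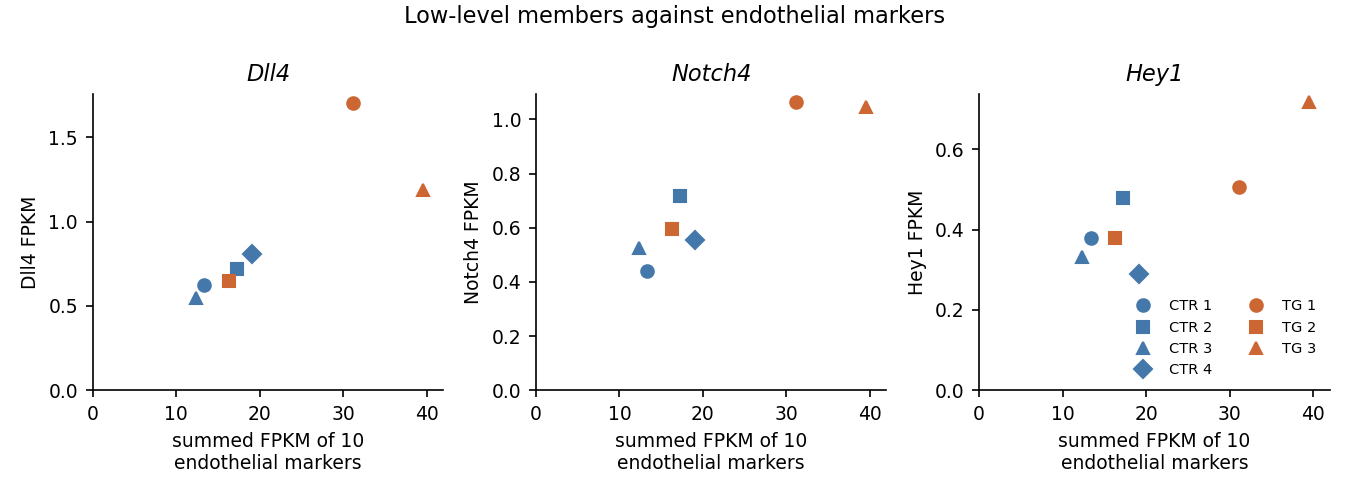
FPKM of *Dll4*, *Notch4* and *Hey1* in each papilloma (CTR blue, TG orange, replicate by symbol shape) against the summed FPKM of 10 endothelial markers. TG 1 and TG 3 have the highest marker sums (31.2 and 39.5 FPKM) and the highest values of all 3 genes, while TG 2 (16.3 FPKM) lies among the CTR papillomas.

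The rest of the pathway was read from 55 further genes, of which 40 passed the expression minimum. By limma, 0 of the 40 passed at an adjusted p under 0.05 (range 0.646 to 0.992). At an unadjusted p under 0.05, 1 was higher and 0 were lower, against 6.82% of all genes in either direction. 33 of the 40 had a higher mean in TG papillomas, with a median log2 difference of 0.19, beside 60.0% and 0.06 over all genes tested. Without TG 3 this was 26 of 40 with a median of 0.07, beside 5494 of 11990 genes with a median of -0.03. TG 3 held the highest value for 24 of the 40, and for 41.1% of all genes tested. By role, 0 of 1 ligand-like gene, 2 of 2 other HES and HEY factors and targets, 2 of 2 ligand endocytosis genes, 7 of 8 genes of the nuclear complex, 4 of 5 of gamma-secretase, 5 of 7 corepressors, 3 of 5 glycosyltransferases, 3 of 3 other proteases and 7 of 7 inhibitors and turnover genes had a higher mean in TG.

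*Psenen*, the most abundant gamma-secretase gene of the list, had 84.4 ± 13.2 FPKM in CTR (SD, n = 4) and 81.8 ± 8.83 FPKM in TG papillomas (SD, n = 3). *Tle4*, which encodes a Groucho corepressor that HES proteins recruit, had 3.45, 1.81, 1.94 and 2.38 FPKM for CTR 1 to CTR 4, against 5.14, 5.31 and 3.24 FPKM for TG 1 to TG 3. TG 3 lay below CTR 1, so the groups of *Tle4* overlapped. Its log2 difference was 0.81 (adjusted p = 0.646 from limma).

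*Numbl*, a relative of the Notch inhibitor *Numb*, was the 1 tested gene of the list higher in every TG papilloma, as were 4.93% of all genes tested, with 1.98, 1.99 and 2.95 FPKM against 1.15 to 1.95 FPKM in CTR papillomas (2-sided exact permutation test, p = 0.0571). TG 1 exceeded CTR 3 narrowly, and the log2 difference was 0.37. Of the HES and HEY genes, *Heyl* and *Hey2* were below the minimum and still higher in every TG papilloma, as were 4.13% of all 23122 symbols without a filter. That base also counts symbols at 0 in every papilloma, which cannot separate. *Heyl* had 0.609, 0.392 and 0.832 FPKM for TG 1 to TG 3 against 0.147 to 0.299 FPKM in CTR papillomas, and *Hey2* had at most 0.287 FPKM (2-sided exact permutation p = 0.0286 for each, unadjusted). Like *Numbl*, both were named because their groups separate, so these p-values add no support. As for *Hey1*, TG 3 held the highest value of both. *Hes5* was listed at 0 in all 7 papillomas.

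*Nrarp*, a Notch target that feeds back to dampen the pathway, had a level like that of *Hes1*. It had 59.2, 35.4, 58.1 and 38.6 FPKM for CTR 1 to CTR 4, against 51.5, 43.4 and 49.0 FPKM for TG 1 to TG 3, so the TG values lay inside the CTR range. Its log2 difference was 0.04 (adjusted p = 0.992 from limma). The ratio of *Nrarp* to *Hes1* ran from 0.737 to 1.52 over the papillomas. *Dlk2*, a Delta-like homolog, had the lowest log2 difference of the list, -0.51 (adjusted p = 0.826 from limma), with 0.828 to 2.26 FPKM in CTR and 0.730 to 1.10 FPKM in TG papillomas.

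The most abundant genes of the other roles overlapped between the groups. In the nuclear complex *Snw1* had 21.3 ± 2.78 FPKM in CTR and 19.8 ± 2.02 FPKM in TG papillomas, and among corepressors *Hdac1* had 32.0 ± 2.26 and 31.0 ± 3.70 FPKM (SD, n = 4 and 3). *Furin*, which cuts the receptor precursor, had 26.6 ± 9.90 FPKM in CTR and 34.6 ± 5.76 FPKM in TG. *Rfng*, a Fringe glycosyltransferase that modifies the receptors, had 12.1 ± 1.35 and 15.7 ± 4.76 FPKM. *Itch*, a ubiquitin ligase in receptor turnover, had 10.3 ± 1.76 and 13.9 ± 3.59 FPKM, and *Mib1*, a ubiquitin ligase that acts on the ligands, 2.89 ± 0.677 and 3.72 ± 2.29 FPKM.

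**Figure D4:**
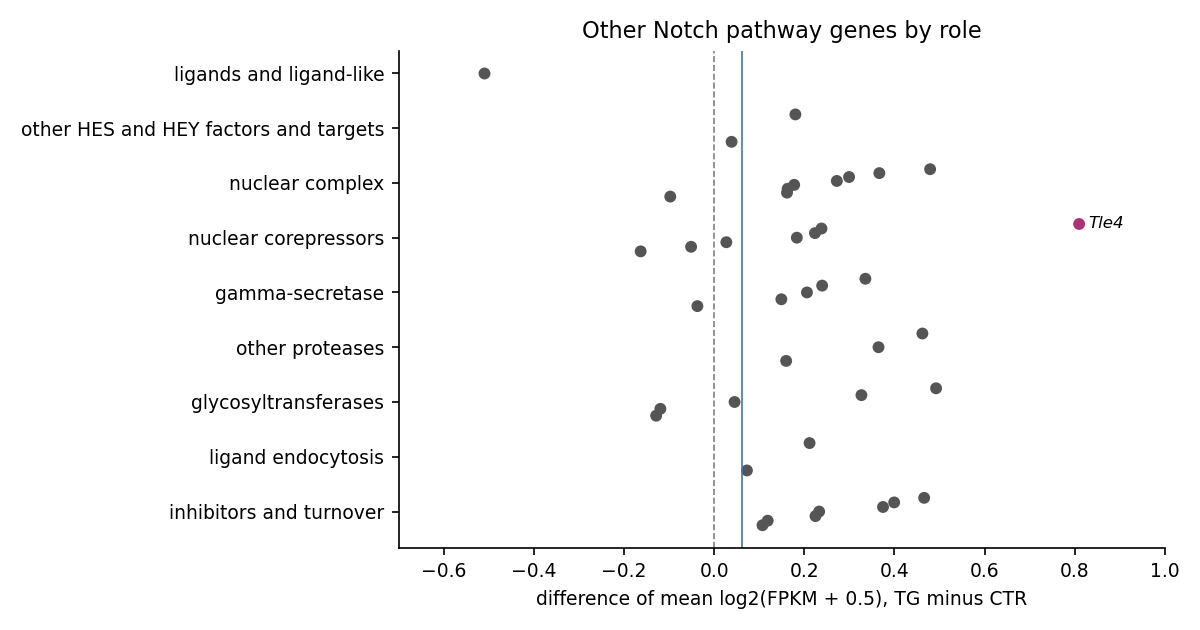
Difference of mean log2(FPKM + 0.5), TG minus CTR, for the 40 tested pathway genes other than the 10 described above, by role, with the 1 gene at an unadjusted p under 0.05 (*Tle4*) in purple. The dashed line marks 0 and the blue line the median of all tested genes, 0.06. Most points lie to the right of both lines, while none passed the adjusted test.

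Patterns over the 7 papillomas were compared with those of all tested genes, as a description over points that share their libraries. *Notch2* was nearest to *Raver1* and *Herc2* (r = 0.999 and 0.998), and 297 genes had an r above 0.95 with it. By contrast 1 gene, *Ttc30a1* (r = 0.969), did so for *Jag1*, whose next was *Ppp3cc* (r = 0.946). *Notch4* was nearest to *BC028528* (r = 0.971) and to *Gja4* (r = 0.965), a connexin gene of arterial endothelium. *Hey1* was nearest to *Arap3* and *Pcolce2* (r = 0.980 and 0.978), *Dll4* to *Ap2m1* and *Hs3st6* (r = 0.978 and 0.973) and *Hes1* to *Peo1* and *Gdpd1* (r = 0.985 and 0.978). The nearest genes were *Trim44* and *Mtap* for *Notch1*, *Irf3* and *Rsad1* for *Notch3*, *Dalrd3* and *Gm14137* for *Jag2*, and *Ccdc157* and *Akap8l* for *Dll1*, with r between 0.975 and 0.993.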

How the data were processed

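Stranded libraries of polyA+ RNA from 7 papillomas were sequenced as 40-base single reads. Per the labels and methods, the authors aligned reads to GRCm38/mm10 with TopHat2 2.0.4 and Bowtie 0.12.7 and deposited FPKM values from Cufflinks 1.3.0, with an interval and a status for each gene. The 10 genes and the lists were chosen with earlier results of these data known. Entries of a symbol were summed, and 162 symbols with a FAIL status were left out. Implied reads were taken as the square of 2 times the FPKM over the upper half-width of its interval, and are approximate. Locus starts were raised by 1 to be 1-based. limma 3.58.1 in R 4.3.3, with a variance trend, was fitted over the 12299 genes on log2(FPKM + 0.5). It was also run on simulated normal values without an outlying library such as TG 3. That run does not show how well it calls changes in these data. Single genes, shares and ratios were compared by 2-sided exact permutation over 35 splits. Named genes were the 10, pathway genes at an unadjusted p under 0.05 or with separated groups (otherwise the most abundant tested gene of a role), and the 2 nearest by pattern. *Hes5* was chosen after its values were seen. 1 pathway gene is not reported here and is left out of the counts over the pathway list. The 20 alternatives changed the pseudocount, filter, scaling, limma settings, entries kept or papillomas used. Python 3.11.15, scipy 1.17.1 and matplotlib 3.10.9 were used.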

Additional observations from a re-analysis of the deposited data

How the results depend on the processing

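In each of 20 alternatives, no member and no other pathway gene passed an adjusted p under 0.05. The lowest adjusted p of a member was 0.151 (*Notch1*) and of another pathway gene 0.0513 (*Tle4*), both with sample quality weights. That setting weighted TG 3 at 0.272 and called 49 higher and 36 lower genes of 12299, against 0 and 0. Over all genes, 9 higher and 8 lower were called without TG 3, 2 and 0 without TG 1, 1 and 0 without CTR 3, and 1 and 0 in the lower-depth papillomas. At an unadjusted p under 0.05, 0 members were higher and 0 lower. Sample quality weights gave 2 lower members, where 1161 genes were higher and 1248 lower of all 12299. Leaving out 1 papilloma gave 0 to 2 lower and 0 to 1 higher members. The 2 lower came without TG 3, where 627 genes were higher and 522 lower of 11990. The 1 higher came without TG 2, where 595 genes were higher and 121 lower of 12298. *Notch1*, *Notch4*, *Jag1*, *Dll4*, *Hes1* and *Hey1* kept the sign of their log2 difference in every alternative that gave a value. With sample quality weights *Notch2* reversed to -0.10 and *Notch3* to -0.071, and in the lower-depth papillomas *Jag2* reversed to 0.093. Sample quality weights lowered the difference of *Notch4* to 0.18 and that of *Dll4* to 0.13. Leaving out 1 papilloma gave -0.15 to 0.24 for *Notch2*, -0.11 to 0.19 for *Notch3* and -0.084 to 0.33 for *Dll1*, with negative values for *Notch2* and *Notch3* without CTR 2 or TG 3 and for *Dll1* without TG 3. The cause was not tested. With the replicate number as a block, the difference of *Dll4* was 0.52 and that of *Notch1* -0.14, and no call changed. Deviations of same-numbered papillomas correlated between -0.19 and 0.04, and those of differently numbered ones between -0.22 and 0.31. So few pairs cannot show whether the numbers pair the papillomas. *Dll4* and *Notch4* have no value at a minimum of 2 FPKM, and *Hey1* has no limma p-value in settings that keep the minimum. Depth limits *Hey1* most, at 9 to 22 implied reads.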
